A study of Arabidopsis thaliana with 16 samples.

Results

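The data compared here were taken from shoots of Arabidopsis thaliana seedlings, a small plant of the mustard family. Seedlings with the shoot at 32 °C and the root zone in a decreasing temperature gradient (the gradient group) were set against seedlings kept at 22 °C throughout (the 22 °C group). The members were chosen by the library labels and comprise 5 of the 16 libraries of the series, 2 from 22 °C shoots and 3 from gradient shoots. Gradient libraries 2 and 3 held the same value at all 32833 loci and were counted as 1, which left 4 distinct libraries of 14. All seedlings were wild type, grew for 4 days at 22 °C on Murashige and Skoog medium and then for 6 days under their regime, and were 10 days old when shoot and root RNA was taken for polyA RNA sequencing. Shoots of seedlings kept whole at 32 °C (the uniform 32 °C group, 3 libraries) served as the comparison for the root-zone gradient. The labels used here give neither the temperatures along the gradient nor the number of seedlings in a library, and they name no separate cultures, so the p-values below measure only the spread between libraries, which may be technical.

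Warmth reaches a plant shoot through several routes at once. Unfolding proteins release heat shock factors, which switch on the genes of small heat shock proteins and of the chaperones that refold or hold client proteins. Milder warmth is also sensed through phytochrome B, PIF transcription factors and auxin, which drive the elongation of stems and leaf stalks known as thermomorphogenesis, and through the clock and the floral pathway. The shoot in addition depends on the root for phosphate, sulfate and nitrate, and each of these has a known set of starvation genes.

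Most of the measured shoot transcriptome differed between gradient and 22 °C. Of 21877 genes with a normalised value of at least 10 in at least 2 shoot columns, 11510 (52.6%) were called higher and 2446 (11.2%) lower in the gradient (limma on log2(value + 1), Benjamini-Hochberg adjusted p under 0.05). The median log2 fold change of all tested genes was 0.49, so the values as deposited place the bulk of genes above their 22 °C level. Rescaling the libraries by a trimmed mean of their log ratios moved this median by -0.49, to about 0. The calls became 6020 higher (27.5%) and 6392 lower (29.2%), and the share of called genes that were higher went from 82.5% to 48.5%. Fold changes below are on the log2(value + 1) scale as deposited, with their standard error (SE), and are to be read against that median. The count after scaling stands beside the main count of called members of each list. These list counts are to be read against the shares of all tested genes, 52.6% higher and 11.2% lower (27.5% and 29.2% after scaling). All 6020 genes called higher after scaling were also called higher as deposited, all 2446 called lower as deposited were also called lower after scaling, and 158 genes were called higher as deposited and lower after scaling. The 22 °C and gradient libraries did not overlap at 18353 tested genes (83.9%), so a lack of overlap at a gene named below was the usual outcome. The values are not divided by gene length, so levels are compared between libraries and not between genes.

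The median change differed between genes of low and high level. In the fifth of genes with the lowest values the median log2 fold change was 1.14, and in the fifth with the highest it was 0.19. The filter enters the first of these values, since a gene of low level can pass it through the warm columns alone, and 1535 tested genes were below 10 in both 22 °C libraries. The 100 loci with the highest mean took between 25.0% and 25.3% of the column total in the 22 °C libraries and between 18.6% and 18.8% in the gradient libraries. The part of these shares in the shift was not tested. The 7 distinct shoot columns summed to between 33075029 and 34500315. Genes of the light-harvesting antenna, which mark green tissue, took between 3.23% and 10.3% of the total in shoots and at most 0.0296% in roots. In these bulk libraries a lower share of one cell type and less RNA per cell cannot be told apart.

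**Figure D1:**
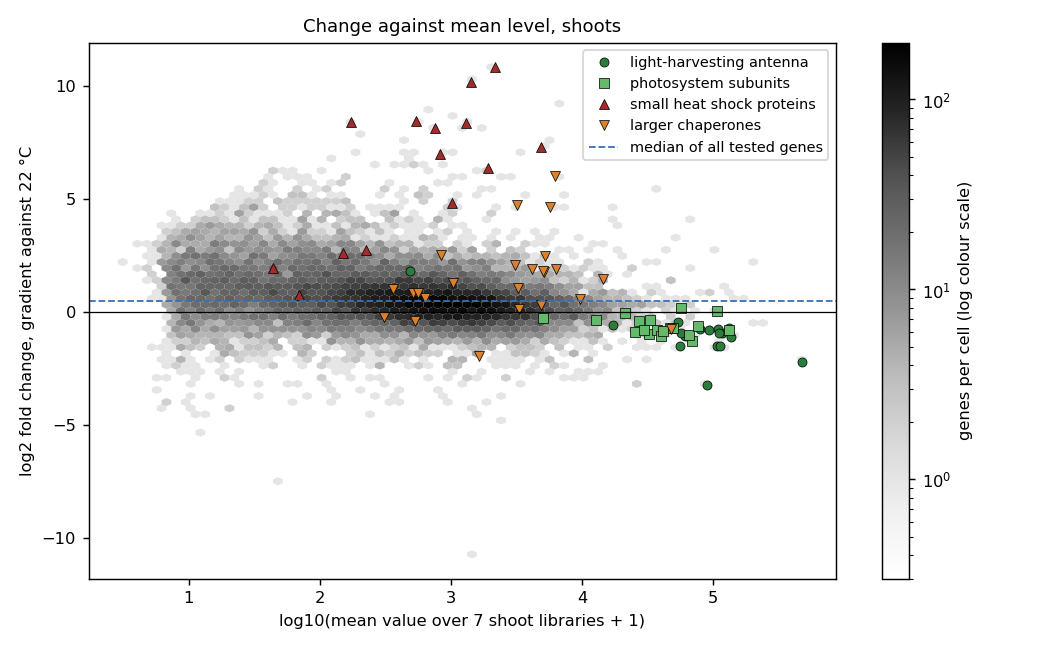
Log2 fold change of each tested gene, gradient against 22 °C (y axis, values as deposited), against log10 of its mean value over the 7 distinct shoot libraries plus 1 (x axis); the grey scale gives genes per cell. Most small heat shock proteins lie far above the dashed median of 0.49, and most antenna and photosystem genes lie below it at the high end of the level axis; trimmed-mean scaling moves the median by -0.49 and leaves 13 of 14 small heat shock proteins called higher and 16 of 17 antenna genes called lower.

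Small heat shock proteins were the list with the highest median. These proteins bind unfolding clients and hold them for refolding, and different members work in the cytosol, plastid, mitochondrion and endoplasmic reticulum. All 14 tested members were called higher in the gradient, 13 after scaling. The median log2 fold change was 7.12 (6.67 after scaling) against 0.49 for all genes. HSP17.4, AT1G53540, HSP17.6II, HSP17.6A, HSP21, ATHSP22.0 and HSP23.6-MITO were below 10 in both 22 °C libraries. These members passed the filter through the warm columns alone, and the added 1 enters the size of their changes and this median. The promoters of the 4 members of the heat shock lists with the largest rise are printed to show what lies before genes that were near 0 at 22 °C. Each is the 250 bases before the annotated start in RefSeq TAIR10.1, with the heat shock element core GAANNTTC in capitals, 5′ to 3′ on the strand of the gene.
ATHSP22.0 (chr4:6370088-6370337, + strand): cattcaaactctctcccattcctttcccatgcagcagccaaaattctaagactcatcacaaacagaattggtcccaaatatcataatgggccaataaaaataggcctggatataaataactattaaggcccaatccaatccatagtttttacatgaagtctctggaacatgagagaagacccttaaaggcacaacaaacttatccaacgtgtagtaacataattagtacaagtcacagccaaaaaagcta
HSP17.6II (chr5:3883112-3883361, - strand): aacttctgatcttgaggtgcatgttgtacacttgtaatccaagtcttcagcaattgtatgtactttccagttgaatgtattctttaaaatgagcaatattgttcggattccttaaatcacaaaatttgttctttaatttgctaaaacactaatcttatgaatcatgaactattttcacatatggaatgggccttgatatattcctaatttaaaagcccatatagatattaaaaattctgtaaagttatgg
HSP17.4 (chr3:16984868-16985117, - strand): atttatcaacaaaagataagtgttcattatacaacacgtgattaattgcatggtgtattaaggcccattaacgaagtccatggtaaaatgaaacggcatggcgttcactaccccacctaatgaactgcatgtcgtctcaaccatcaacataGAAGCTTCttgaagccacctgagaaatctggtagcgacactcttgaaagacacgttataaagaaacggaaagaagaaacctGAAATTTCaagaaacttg
HSP21 (chr4:13819972-13820221, - strand): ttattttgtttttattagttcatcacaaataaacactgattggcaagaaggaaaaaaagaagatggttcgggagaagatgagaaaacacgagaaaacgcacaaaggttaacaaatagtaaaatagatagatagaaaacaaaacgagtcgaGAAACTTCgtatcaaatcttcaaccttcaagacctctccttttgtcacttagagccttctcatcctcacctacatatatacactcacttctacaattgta

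The core, read on both strands, occurred in the windows of HSP17.4 and HSP21 and its letters were not in those of ATHSP22.0 and HSP17.6II. In HSP17.4 the cores began -99 and -18 bases from the start, and in HSP21 the core began -100 bases from it. Among all 27443 promoters of this length 9.55% held the core, against 4 of 14 in the small heat shock protein list and 1 of 24 in the list of larger chaperones. The core was as common in some other lists, in 8 of 27 phosphate starvation promoters and 6 of 18 salicylic acid defence promoters. None of the 4 windows held the evening element AAAATATCT or the phosphate response element GNATATNC. The HSP17.4 window held 1 G-box, CACGTG, which shares no base with its cores. These matches describe letters and not binding.

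ATHSP22.0, a small heat shock protein of the endoplasmic reticulum, had values of 0 and 2 in the 22 °C libraries and 3416 and 2852 in the gradient libraries. Its log2 fold change was 10.82 ± 0.43 (SE; limma adjusted p = 2.55e-06). HSP17.6II, a cytosolic class II member, stood at 2 and 0 and then 2383 and 1654, a log2 fold change of 10.16 ± 0.45 (limma adjusted p = 3.74e-06). Both were near 0 in the cool libraries and above 1000 in each gradient library. Their groups did not overlap, as was so for 83.9% of all tested genes. HSP21, which protects the plastid, was listed at 0 in both 22 °C libraries and had 320 and 358 in the gradient. HSP23.6-MITO, a mitochondrial member, had 0 and 2 at 22 °C and 476 and 473 in the gradient. HSP17.4, a cytosolic class I member, had 0 and 2 at 22 °C and 609 and 569 in the gradient. Members known from 4 compartments were therefore at or near 0 in both cool libraries. HSP18.2, a cytosolic class I member, had a measurable cool level of 40 and 37 and reached 3183 and 3351. AT2G29500, annotated as an HSP20-like chaperone, went from 39 and 36 to 6171 and 5711. These 2 genes were thus detected at 22 °C and still higher in both gradient libraries, without overlap. The smallest change in the list, singled out after its values were seen, was that of AT5G37670, 33 and 29 against 57 and 49, a log2 fold change of 0.75 ± 0.22 that was not called after scaling (limma adjusted p = 0.307), without 22 °C library 2 (limma adjusted p = 0.0807) or without gradient library 1 (0.106).

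The larger chaperones moved less and not all in one direction. Of 24 tested HSP70, HSP90, HSP100 and HSP60 genes and their partners, 19 were called higher and 3 lower, and the median log2 fold change was 1.16; after scaling the counts were 14 and 5 and the median 0.67. ROF2, a peptidyl-prolyl isomerase that binds HSP90, had 85 and 87 at 22 °C and 5886 and 5240 in the gradient (log2 fold change 6.00 ± 0.15, limma adjusted p = 1.01e-06). Hop3, a co-chaperone that bridges HSP70 and HSP90, went from 143 and 120 to 3574 and 3318. HSP90.1, the heat-induced cytosolic HSP90, went from 207 and 160 to 4643 and 4433. For all 3 genes every gradient value lay more than 10 times above every 22 °C value. HSP70, a heat-induced cytosolic member, had 794 and 443 at 22 °C and 2978 and 3498 in the gradient, a log2 fold change of 2.44 ± 0.27 (limma adjusted p = 1.75e-04). HSP101, the disaggregase needed for acquired thermotolerance, changed little by comparison, from 353 and 295 to 481 and 488, and its call (limma adjusted p = 0.00663) did not hold after scaling (0.506). The plastid chaperone cpHsc70-2 went from 2161 and 2021 to 7756 and 7685. The mitochondrial MTHSC70-2 went from 638 and 653 to 2604 and 2778, and both organelle genes were called higher under both scalings.

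The 3 chaperone genes called lower, named after their values were seen, were HSC70-1, AT3G09440 and BAG6. HSC70-1, a constitutive cytosolic HSP70, fell from 60682 and 56801 to 29550 and 40068. AT3G09440, annotated as a heat shock protein 70 family member, fell from 3100 and 2431 to 650 and 756, a log2 fold change of -1.97 ± 0.14 (limma adjusted p = 2.00e-05). So while the inducible HSP70 gene was higher in both gradient libraries than in both cool ones, HSC70-1 and AT3G09440 were lower in both. Reads of the similar cytosolic HSP70 copies can be split uncertainly between them, and how such reads were counted is not known from the sources here.

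**Figure D2:**
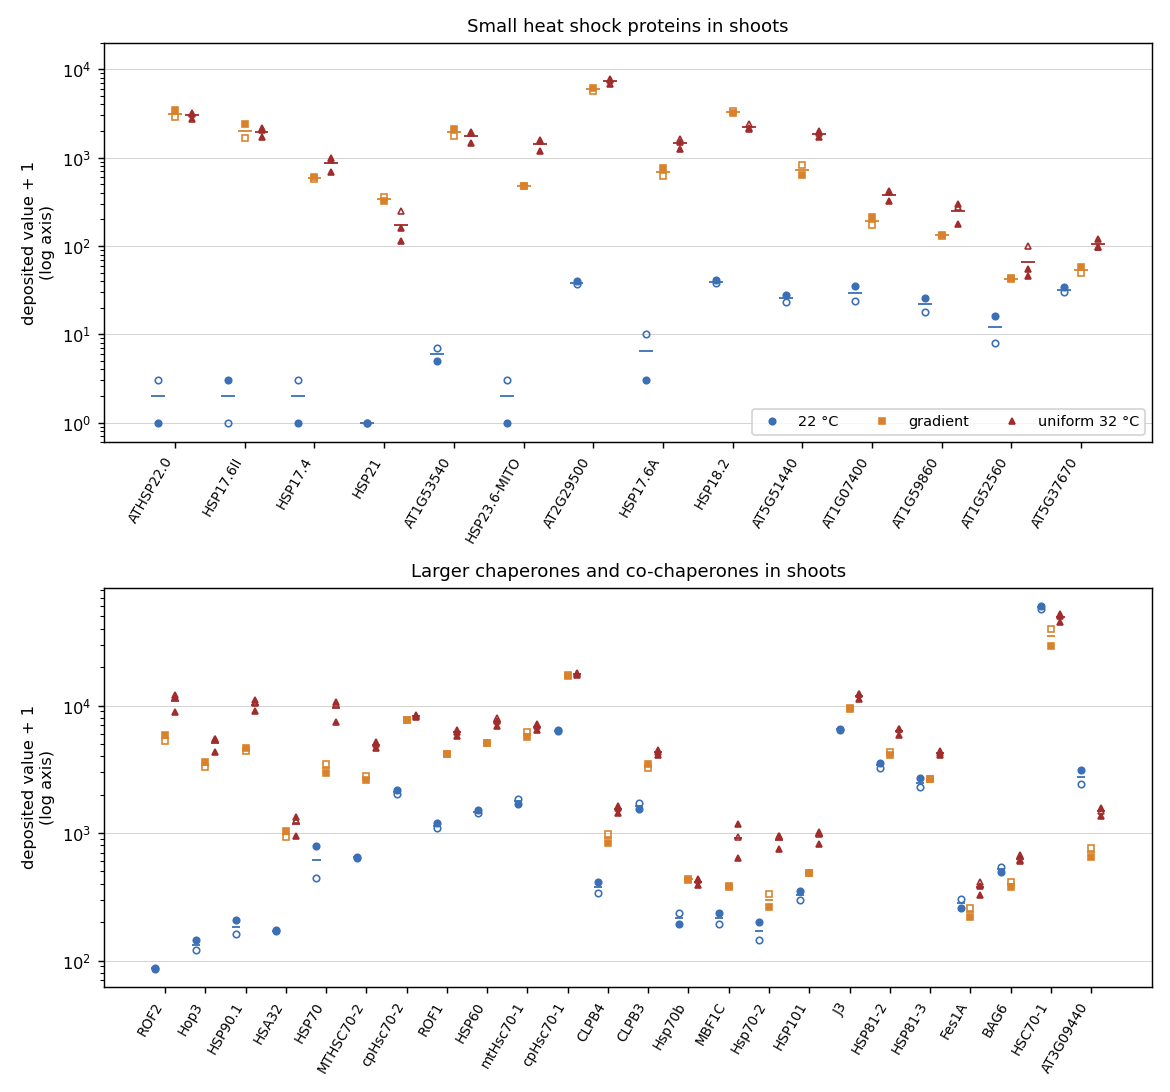
Value plus 1 on a log axis for each tested small heat shock protein (upper panel) and larger chaperone (lower panel) in every distinct shoot library, ordered by log2 fold change; circles are 22 °C, squares the gradient and triangles uniform 32 °C, open symbols are replicate 2 and short lines are group means. ATHSP22.0 stood at 0 and 2 at 22 °C and at 3416 and 2852 in the gradient. Of the 24 larger chaperones 23 have a lower mean log2 value in the gradient than at uniform 32 °C, as do 10609 of all 21877 tested genes. After trimmed-mean scaling 13 of the 14 small heat shock proteins and 14 of the 24 larger chaperones were still called higher than at 22 °C.

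Heat shock factors, the transcription factors of this response, were called in smaller numbers. Of 15 tested genes of this list, 8 were called higher and 2 lower, and 3 and 4 after scaling. Of all tested genes 52.6% were called higher and 11.2% lower, and 27.5% and 29.2% after scaling. HSFA2, the main heat-induced factor, had 20 and 6 at 22 °C and 60 and 53 in the gradient (log2 fold change 2.24 ± 0.48, limma adjusted p = 0.00441). The repressors HSFB2A and HSFB2B were the 2 called lower, HSFB2A going from 422 and 346 to 85 and 82. HSFB2B went from 311 and 209 to 101 and 113, and for both the gradient libraries lay below the cool ones.

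For protein folding in the endoplasmic reticulum, 11 of 14 tested members were called higher and 1 lower (9 and 1 after scaling), and after scaling the median log2 fold change was 0.91. The one called lower, named after its values were seen, was BZIP28, a membrane-bound transcription factor of this response, at 1786 and 1649 and then 1132 and 1148. ERDJ3B, a co-chaperone of the folding compartment, rose from 777 and 688 to 5771 and 5414. BIP1, its HSP70 partner, rose from 2331 and 2682 to 11962 and 12369. CNX1, the calnexin that retains unfolded glycoproteins, rose from 3550 and 3815 to 16149 and 15131 (log2 fold change 2.09 ± 0.08, limma adjusted p = 1.94e-06). The cool and gradient libraries did not overlap for any of these 3 genes, although BIP1 and its near copy BIP2 may share reads.

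The light-harvesting antenna was lower in the gradient. Antenna proteins bind chlorophyll and pass light energy to the photosystems, and their genes are among the most abundant in a green shoot. Of 17 tested members 16 were called lower and 1 higher under both scalings, with a median log2 fold change of -0.95 (-1.44 after scaling). Their summed share of the column total was 10.3 and 9.76% in the 22 °C libraries and 3.41 and 3.85% in the gradient libraries. LHCB1.3, a gene of the main photosystem II antenna, fell from 1146002 and 1042740 to 216329 and 247874, a log2 fold change of -2.24 ± 0.15 (limma adjusted p = 1.53e-05). LHCB1.4 fell from 255743 and 254339 to 23188 and 30837, a log2 fold change of -3.25 ± 0.14 (limma adjusted p = 3.59e-06). LHCB1.1 fell from 205964 and 194365 to 62169 and 77480, a log2 fold change of -1.53 ± 0.14. In all 3 the gradient libraries lay far below the cool ones, with no overlap. The LHCB1 genes are near copies of one another, so their separate values are uncertain. LHCB4.2, a minor antenna gene with a more distinct sequence, fell from 106362 and 106257 to 33385 and 40254. LHCA4, of the photosystem I antenna, fell from 225512 and 233650 to 101090 and 111182. The member called higher, named after its values were seen, was LHCB4.3, at 154 and 176 and then 494 and 681.

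Nuclear genes of the photosystems and electron transport were lower in the same way, 16 of 19 called lower and none higher (18 lower after scaling), with a median log2 fold change of -0.73 and a summed share that went from 3.80 and 3.80% to 2.28 and 2.39%. PSAF, a photosystem I subunit that docks plastocyanin, fell from 126418 and 121427 to 47906 and 54084 (log2 fold change -1.28 ± 0.10, limma adjusted p = 2.86e-05). PSBQ-2, of the oxygen-evolving complex, fell from 63914 and 67820 to 31018 and 30844. When a change beyond 2-fold was tested with limma, 5 of the 17 antenna genes and 0 of the 19 photosystem genes were called lower (1 of the latter at an unadjusted p under 0.05). Carbon fixation genes did not share the direction as deposited: 13 of 16 Rubisco and Calvin cycle genes were called higher and 3 lower, and 3 and 3 after scaling. Without gradient library 1, 1 of them was called lower as deposited. RBCS1B, one of the small subunit genes of Rubisco, rose from 3741 and 3700 to 25318 and 29677. RBCS1A, another, fell from 317972 and 309122 to 214273 and 241115 (log2 fold change -0.46 ± 0.12, limma adjusted p = 0.0113). Without gradient library 1 the RBCS1A call was lost (limma adjusted p = 0.0639). The small subunit genes are also close copies.

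Chlorophyll synthesis was split, with 6 of 17 genes called higher and 4 lower (3 and 11 after scaling). The 3 light-driven protochlorophyllide reductases differed in direction. PORA, known for its role in greening seedlings, fell from 1227 and 962 to 60 and 91 (log2 fold change -3.86 ± 0.24, limma adjusted p = 1.34e-05). PORB fell from 34470 and 31442 to 18977 and 20997. PORC rose from 2203 and 1971 to 6556 and 6204. For each of them both gradient libraries lay on the same side of both cool libraries. PCB2, the divinyl reductase of the same pathway, rose from 1008 and 904 to 2670 and 2576.

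**Figure D3:**
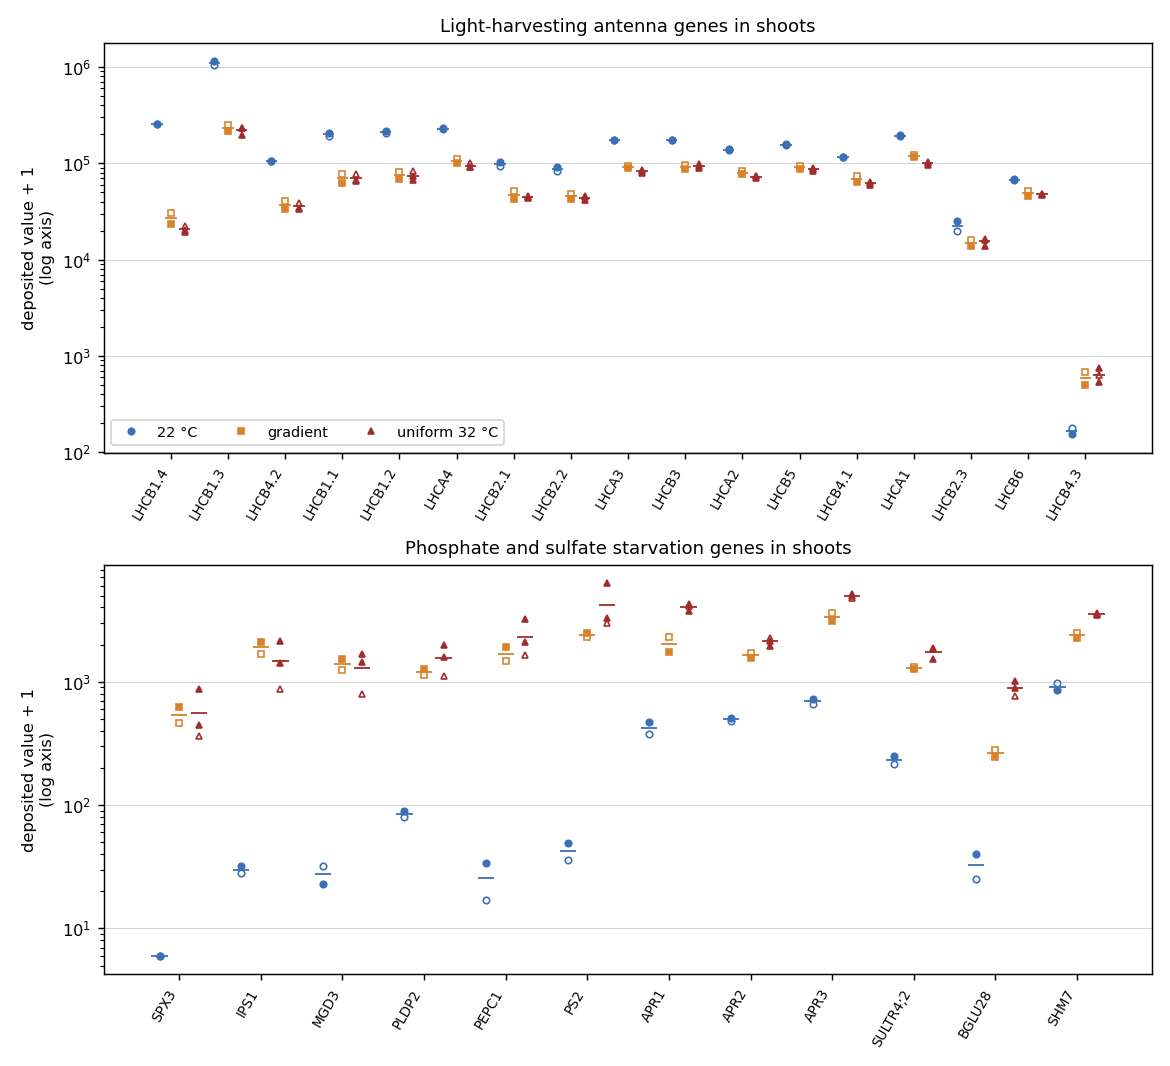
Value plus 1 on a log axis in every distinct shoot library for the 17 tested antenna genes (upper panel, ordered by log2 fold change) and for 12 called phosphate and sulfate starvation genes (lower panel); circles are 22 °C, squares the gradient, triangles uniform 32 °C, open symbols replicate 2 and short lines group means. All antenna genes but LHCB4.3 are lower in the gradient than at 22 °C, and all 12 nutrient genes are higher, under both scalings.

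Genes of phosphate starvation were higher than at 22 °C as a group. When phosphate is short, plants replace phospholipids with galactolipids and sulfolipids, release phosphate with phosphatases and nucleases, and make the target mimic IPS1. Of 27 tested genes, 23 were called higher and 2 lower (21 and 3 after scaling), and the median log2 fold change was 2.60 (2.11 after scaling). Leaving out any 1 of the cool or gradient libraries left 1 gene called lower. SPX3, a phosphate sensor domain protein, had 5 and 5 at 22 °C and 623 and 459 in the gradient (log2 fold change 6.48 ± 0.38, limma adjusted p = 1.04e-05). Being below 10 in both 22 °C libraries, SPX3 passed the filter through the warm columns alone, and the added 1 enters the size of its change. PEPC1, annotated as a phosphatase-related protein, rose from 33 and 16 to 1909 and 1471. The non-coding IPS1, which sequesters a microRNA of phosphate signalling, rose from 31 and 27 to 2113 and 1679. In all 3 genes both gradient libraries stood more than 10 times above both cool ones. MGD3, which makes galactolipid, rose from 22 and 31 to 1541 and 1250. Against uniform 32 °C none of the 27 genes was called higher or lower, and the median log2 difference was -0.26 (0.01 for all genes). The phosphate response element GNATATNC, read on both strands, was in the 250 bases before the start of 8 of 27 of the phosphate genes, against 5.46% of all promoters. It was also in 4 of 17 cell cycle promoters and 3 of 16 dark and sugar starvation promoters. These matches describe letters and not binding.

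Sulfur deficiency genes moved in one direction as well. All 15 tested members were called higher, 12 after scaling, with a median log2 fold change of 1.77. APR3, a reductase of the key step of sulfate assimilation, rose from 724 and 660 to 3132 and 3608. APR1, of the same step, rose from 467 and 374 to 1746 and 2319. The cool libraries lay below the gradient libraries for both. BGLU28, a glucosidase of sulfur-starved plants thought to release sulfur from glucosinolates, rose from 39 and 24 to 246 and 281 (log2 fold change 3.06 ± 0.24, limma adjusted p = 3.20e-05). SULTR4;2, a vacuolar sulfate exporter, rose from 251 and 215 to 1256 and 1319.

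Glucosinolate synthesis is the main sulfur-rich defence pathway of this plant family. Of its 25 tested genes 23 were called higher and 1 lower, 20 and 2 after scaling, and the median log2 fold change was 1.39. Without 22 °C library 2 or gradient library 1 none was called lower as deposited. CYP79F1, an entry enzyme of the aliphatic branch, rose from 539 and 532 to 2659 and 3757 (log2 fold change 2.56 ± 0.22, limma adjusted p = 4.50e-05). SOT17, a sulfotransferase of its last step, rose from 356 and 280 to 1345 and 1525. The gradient libraries lay above the cool libraries for both, and both were called after scaling.

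Nitrogen genes were divided, 7 of 20 called higher and 5 lower (5 and 7 after scaling). NIR1, nitrite reductase, rose from 3018 and 3519 to 11008 and 10069. ASN1, the dark and sugar-starvation induced asparagine synthetase, fell from 70701 and 92329 to 15999 and 23707 (log2 fold change -2.05 ± 0.23, limma adjusted p = 1.74e-04). GDH1, glutamate dehydrogenase, fell from 5819 and 8211 to 1758 and 1698. NRT2.3, a nitrate transporter gene, was among the 12 largest falls, from 79 and 55 to 4 and 1.

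Genes known for darkness, sugar starvation and senescence were mostly lower. Of 15 tested, 12 were called lower and 3 higher (12 and 1 after scaling), the lowest median of the 32 lists at -1.45. SEN1, a senescence and dark marker, fell from 63008 and 88852 to 6747 and 8530 (log2 fold change -3.30 ± 0.27, limma adjusted p = 3.84e-05). BCAT2, which breaks down branched amino acids, fell from 6007 and 9064 to 832 and 1245. TPS11, a trehalose phosphate synthase family member, fell from 8931 and 12822 to 2664 and 4181. In each of these the higher gradient library was still below the lower cool library.

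Among starch genes 13 of 20 were called higher and 1 lower, 6 and 7 after scaling, beside 52.6% and 11.2% of all tested genes (27.5% and 29.2% after scaling). Without 22 °C library 2, gradient library 1 or gradient library 2 none was called lower as deposited. BAM5, a beta-amylase outside the plastid, rose from 7 and 9 to 5546 and 4207, a log2 fold change of 9.08 ± 0.87 (limma adjusted p = 8.53e-05). PHS2, the cytosolic glucan phosphorylase, rose from 1748 and 1894 to 4244 and 4058.

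Flavonoid and anthocyanin genes were mostly higher. Of 20 tested genes 15 were called higher and 2 lower (13 and 2 after scaling), with a median log2 fold change of 1.93. Without any 1 of the 7 distinct libraries 1 gene was called lower. TT4, chalcone synthase, the entry enzyme, rose from 196 and 209 to 7666 and 8056 (log2 fold change 5.27 ± 0.14, limma adjusted p = 1.07e-06). FLS1, flavonol synthase, rose from 32 and 32 to 365 and 386. UGT78D1, which adds rhamnose to flavonols, rose from 620 and 517 to 2661 and 2551. All 3 were higher in both gradient libraries than in either cool one. MYBL2, a repressor of anthocyanin genes, fell from 6090 and 8230 to 903 and 1139 (log2 fold change -2.80 ± 0.19, limma adjusted p = 1.65e-05). UF3GT, a late anthocyanin glycosyltransferase, was not called, with 2 and 0 at 22 °C and 1 and 10 in the gradient, groups that overlap; without gradient library 1 it was called higher (limma adjusted p = 0.0190).

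Growth regulators of warmth and shade were mixed. Of 19 photoreceptor, PIF and growth regulator genes 11 were called higher and 4 lower, 8 and 8 after scaling. The shares of all tested genes were 52.6% and 11.2%, and 27.5% and 29.2% after scaling. Without 22 °C library 2 or gradient library 1, 2 were called lower as deposited. PIL1, a shade-induced regulator, rose from 287 and 277 to 1709 and 1092. HFR1, which restrains PIF proteins, rose from 2161 and 2041 to 4807 and 4151. PHYA, the photoreceptor of far-red light, fell from 15013 and 17002 to 7322 and 7585 (log2 fold change -1.10 ± 0.08, limma adjusted p = 2.22e-05). The groups did not overlap for these 3 genes. PIF4, the central transcription factor of thermomorphogenesis, was slightly lower, at 7667 and 8598 and then 5899 and 6360 (log2 fold change -0.41 ± 0.11, limma adjusted p = 0.0151). The PIF4 call was lost without 22 °C library 2 (limma adjusted p = 0.0914) and without gradient library 1 (0.0843).

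Auxin genes were mostly higher. Of 20 tested genes of auxin synthesis and early response 18 were called higher and 1 lower, 13 and 1 after scaling, and the median log2 fold change was 1.24. YUC9, an enzyme of the main auxin synthesis route, rose from 362 and 262 to 1611 and 1701 (log2 fold change 2.42 ± 0.16, limma adjusted p = 1.73e-05). YUC8, the enzyme best known as a PIF4 target in warmth, had 541 and 382 and 1018 and 891, and its call (limma adjusted p = 0.00311) was not kept after scaling (0.0512). Both enzymes had higher values in both gradient libraries than in the cool ones. SAUR20, an early auxin response gene, rose from 355 and 369 to 1238 and 1297, although the SAUR copies can share reads. IAA14, a repressor protein induced by auxin, rose from 566 and 626 to 1870 and 1693. GH3.5, which conjugates auxin to amino acids, was the one called lower, from 8179 and 8157 to 2985 and 2324.

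Wall-loosening genes changed both ways, with 11 of 20 called higher and 4 lower (9 and 6 after scaling). Of all tested genes 52.6% were called higher and 11.2% lower (27.5% and 29.2% after scaling). XTH7, an enzyme that cuts and joins xyloglucan, rose from 4100 and 3993 to 29767 and 20008. EXPA10, an expansin of growing leaves, rose from 349 and 413 to 1627 and 1639. XTH15, of the same family as XTH7, fell from 8973 and 10155 to 1257 and 909 (log2 fold change -3.16 ± 0.20, limma adjusted p = 1.51e-05).

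Among gibberellin and brassinosteroid genes 9 of 26 were called higher and 4 lower, 4 and 11 after scaling; without 22 °C library 2 the higher count was 5, and without gradient library 1 the lower count was 2. GA20OX1, a rate-limiting gibberellin enzyme, rose from 96 and 101 to 315 and 311. CPD, a brassinosteroid synthesis gene under feedback control, fell from 17253 and 18605 to 8165 and 8638. Of 20 cytokinin genes 12 were called higher and none lower (8 and 3 after scaling), beside 52.6% and 11.2% of all tested genes (27.5% and 29.2%). CKX4, which degrades cytokinin, rose from 170 and 122 to 676 and 549, with both gradient libraries above the cool ones. Of 18 ethylene genes 4 were called higher and 5 lower (4 and 9 after scaling). EBF2, which targets the ethylene transcription factors for degradation and is itself ethylene-induced, fell from 7783 and 9517 to 3673 and 2936. ERS2, an ethylene receptor, fell from 823 and 843 to 360 and 392.

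Clock genes were measured at a time of day that the labels used here do not give. Of 20 tested, 5 were called higher and 7 lower, 2 and 14 after scaling; without 22 °C library 2 the higher count was 3, and without gradient library 2 it was 2. PRR9, a daytime repressor of the clock, fell from 809 and 783 to 225 and 205 (log2 fold change -1.88 ± 0.20, limma adjusted p = 1.33e-04). RVE1, a morning factor linked to auxin, fell from 1327 and 1297 to 176 and 303. ELF4, a part of the evening complex, rose from 21 and 21 to 117 and 76. The gradient and cool libraries did not overlap for these genes. CCA1, the morning oscillator gene, had 2449 and 1857 at 22 °C and 3046 and 3129 in the gradient. Its call (limma adjusted p = 0.0293) was lost after scaling (0.821), without 22 °C library 2 (0.179), without gradient library 1 (0.0869) and without gradient library 2 (0.106). The evening element AAAATATCT, read on both strands, was in 5 of 20 clock gene promoters of 250 bases and in 2.36% of all promoters. It was also in 2 of 16 promoters of the heat shock factor list.

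In the floral pathway FT, the mobile signal that starts flowering, rose from 10 and 5 to 80 and 68 (log2 fold change 3.20 ± 0.33, limma adjusted p = 1.25e-04). TEM1, a repressor of FT, fell from 2757 and 2498 to 1056 and 793. FLC, another floral repressor, rose from 92 and 71 to 217 and 236. Over 16 tested flowering genes 4 were called higher and 6 lower, 4 and 7 after scaling.

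Cold-regulated genes were lower or not called in most cases. Of 15 tested, 5 were called lower and 1 higher (8 and 1 after scaling). COR413IM1, an inner envelope protein of cold acclimation, fell from 5338 and 5042 to 1288 and 1109 (log2 fold change -2.12 ± 0.10, limma adjusted p = 5.47e-06). LTI30, a dehydrin, fell from 631 and 385 to 161 and 131. The lower count depended on single libraries, being 2 without 22 °C library 1, 3 without uniform 32 °C library 1 and 2 without gradient library 2, and the higher count was 4 without 22 °C library 1. COR15A, a chloroplast cold protein, had 209 and 39 in the cool libraries and 145 and 159 in the gradient, so its cool libraries lay on both sides of the gradient ones. It was not called (limma adjusted p = 0.342), and without 22 °C library 1 it was called higher (0.00138). The 22 °C libraries differed at least 4-fold at 100 of 17514 genes with a value of 50 or more in either, 97 of them higher in library 1, whereas the gradient libraries did so at 11 of 18982 genes.

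Of 16 jasmonate synthesis and response genes 8 were called higher and 1 lower (6 and 1 after scaling). The shares of all tested genes were 52.6% and 11.2% (27.5% and 29.2% after scaling). Without 22 °C library 1, 14 were called higher, and without any 1 of the cool or gradient libraries none was called lower. VSP2, a storage protein used as a jasmonate marker, rose from 330 and 275 to 5734 and 9229 (log2 fold change 4.59 ± 0.41, limma adjusted p = 6.09e-05). LOX2, the plastid lipoxygenase of jasmonate synthesis, rose from 1890 and 1205 to 11028 and 12381. In both the gradient libraries lay above both cool ones, and VSP2 may share reads with its near copy VSP1. JAZ5, a repressor that jasmonate itself induces, was a gene where the cool libraries differed, with 287 and 23 at 22 °C and 321 and 264 in the gradient. It was not called (limma adjusted p = 0.133) and was called higher without 22 °C library 1 (5.47e-04).

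Salicylic acid genes had 6 of 17 called higher and 1 lower, 3 and 4 after scaling, and without uniform 32 °C library 2 or 3 the lower count was 2. PR1, the standard marker of salicylic acid defence, was not called (limma adjusted p = 0.484), with 4 and 58 at 22 °C and 4 and 7 in the gradient, where 1 cool library stood apart. CBP60G, a regulator of salicylic acid synthesis, fell from 725 and 516 to 189 and 156. Of 17 abscisic acid genes 5 were called higher and 2 lower (2 and 4 after scaling). Without 22 °C library 1 these counts were 11 and 1, and without gradient library 2 the lower count was 1. RD26, a dehydration-induced transcription factor, fell from 1110 and 1088 to 184 and 222. RAB18, a dehydrin, rose from 485 and 461 to 1479 and 1079.

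Antioxidant genes were called higher in 12 of 15 and lower in 3 (7 and 3 after scaling). APX2, a cytosolic ascorbate peroxidase under heat shock factor control, had 0 and 1 at 22 °C and 663 and 602 in the gradient (log2 fold change 8.81 ± 0.33, limma adjusted p = 2.27e-06). CAT1, a catalase, fell from 3391 and 3865 to 1534 and 1470. Of 11 tested genes of alternative respiration 7 were called higher and 1 lower (6 and 3 after scaling). AOX1C, an alternative oxidase, rose from 6 and 5 to 134 and 187. NDB4, an external mitochondrial NADH dehydrogenase, rose from 5 and 3 to 31 and 75. Both stood below 10 in the cool libraries and so passed the filter through the warm columns alone, and the added 1 enters the size of their changes.

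Aquaporins, the water channels, had 5 of 17 called higher and 7 lower, 0 and 12 after scaling. TIP1;2 of the vacuole membrane fell from 205923 and 212912 to 90891 and 91005 (log2 fold change -1.20 ± 0.11, limma adjusted p = 7.30e-05). PIP2;2 of the plasma membrane fell from 10606 and 10024 to 5370 and 5437 (log2 fold change -0.93 ± 0.07, limma adjusted p = 3.57e-05).

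Of 17 tested cell cycle genes 8 were called higher and 1 lower, 4 and 4 after scaling. The shares of all tested genes were 52.6% and 11.2%, and 27.5% and 29.2% after scaling. Without 22 °C library 1, gradient library 1 or gradient library 2 no cell cycle gene was called lower as deposited. MCM3, a subunit of the replicative helicase, rose from 220 and 259 to 602 and 697. MCM5, of the same helicase, rose from 325 and 363 to 831 and 1049. In the stomatal lineage 6 of 12 were called higher and none lower, 2 and 1 after scaling, beside the same shares of all genes. Without gradient library 2 the higher count was 3. ERL1, a receptor kinase of stomatal patterning, rose from 113 and 103 to 284 and 268.

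Tissue markers were called as well. Of 5 markers of green tissue, which include LHCB1.1 and RBCS1A, 2 were called higher and 3 lower (0 and 3 after scaling), beside the falls of antenna and photosystem genes. Of 4 shoot meristem markers 2 passed the filter, 1 called higher and 1 lower under both scalings, and without 22 °C library 2 or gradient library 2 none was called lower. Of 12 root markers 5 were called higher and none lower (2 and 1 after scaling). The summed value of the list without PYK10 was 1144 and 1025 in the 22 °C shoots and 1487 and 1365 in the gradient shoots. In roots it was 37430 to 46854 in the 22 °C and gradient libraries and 6519 to 14491 in the uniform 32 °C libraries. No root marker was listed at 0 in a shoot library of either group. Without gradient library 1 the higher count was 3, and without 22 °C library 2 there was 1 called lower. PYK10, a glucosidase of endoplasmic reticulum bodies, rose from 61748 and 55170 to 279537 and 220794, both gradient libraries being above the cool ones. KAT1, a guard cell potassium channel, rose from 1568 and 1396 to 4890 and 3937. CER1, a wax gene of the epidermis, rose from 703 and 477 to 4477 and 4473. XCP1, a xylem protease, rose from 270 and 278 to 701 and 904. So these markers of 3 tissues were higher in both gradient libraries. Their lists gave 3 of 3 guard cell markers called higher (1 after scaling), 2 of 3 epidermis markers (1 higher and 1 lower after scaling) and 4 of 6 vascular markers (3 higher and 2 lower after scaling), none lower as deposited. The epidermis count was 1 without 22 °C library 1 or gradient library 1, the vascular count was 2 without 22 °C library 1 or gradient library 2, and 1 marker of each of these lists was called lower without 22 °C library 2. The part of tissue proportions in the gene groups above was not tested.

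**Figure D4:**
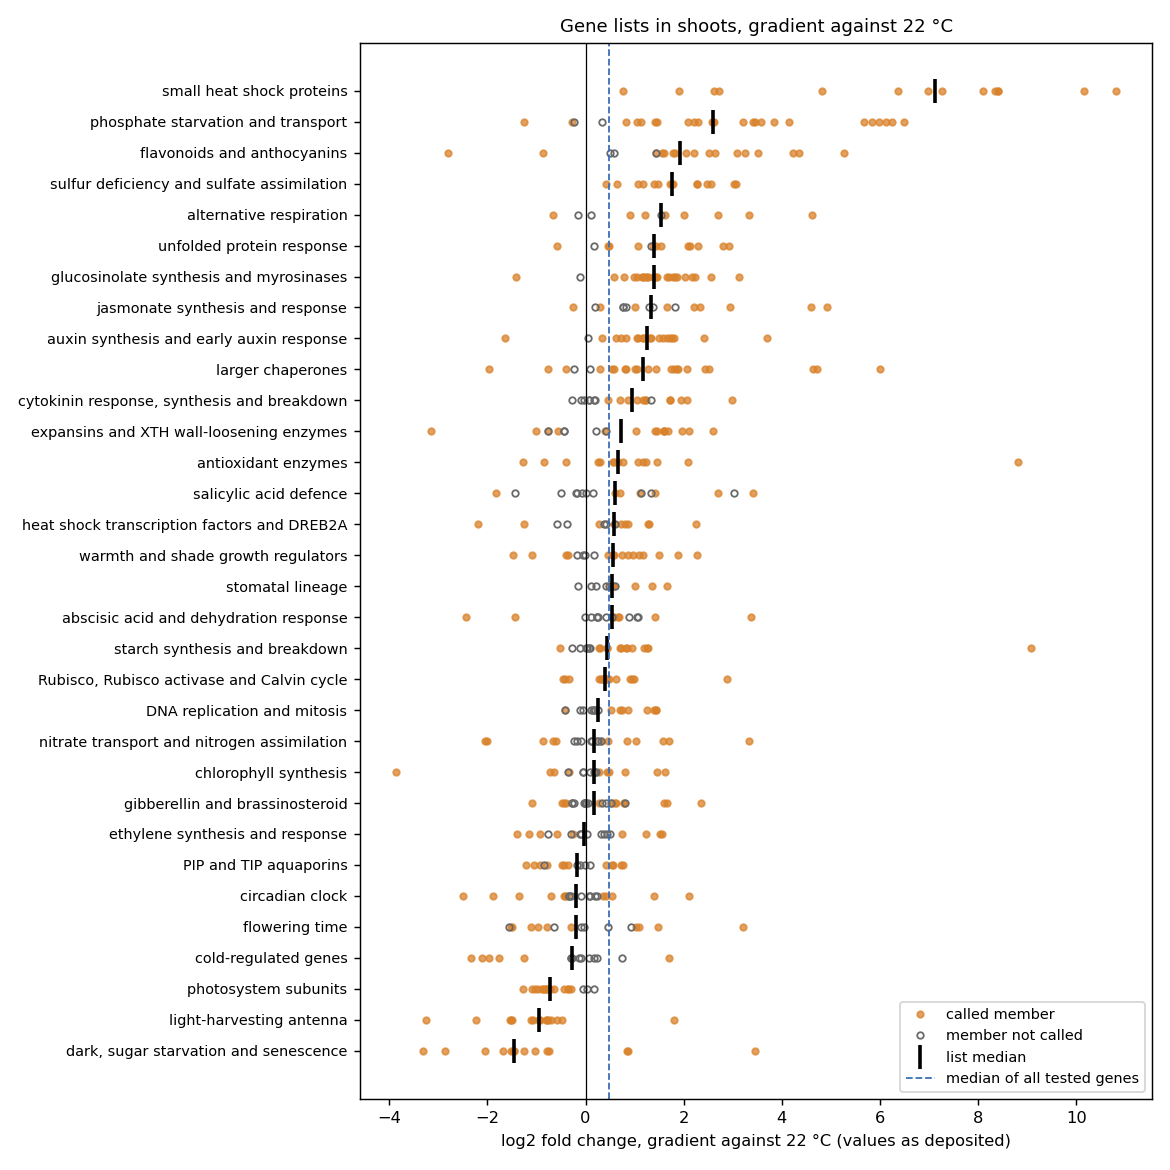
Log2 fold change, gradient against 22 °C (x axis, values as deposited), of each tested member of the 32 gene lists (rows, ordered by median); filled points were called, open points were not, and black bars are list medians. The dashed line is the median of all tested genes, 0.49; read against that line, as after trimmed-mean scaling, small heat shock proteins (median 7.12) lie at the right end, and starvation, antenna and photosystem genes (medians -1.45, -0.95 and -0.73) at the left.

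The 12 largest rises, among called genes whose higher group averaged 50 or more and whose groups were separate, were led by heat shock genes. They comprised ATHSP22.0, HSP17.6II, BAM5, APX2, HSP17.4, HSP21, HSP23.6-MITO and AT1G53540, another HSP20-like chaperone, whose values went from 4 and 6 to 2133 and 1735. LTP4, a lipid transfer protein, went from 6 and 4 to 1242 and 1887, and AT1G72660, annotated as a P-loop nucleoside triphosphate hydrolase, from 8 and 2 to 1487 and 1353. Both stood below 10 at 22 °C. AT4G19430, uncharacterised, went from 0 and 5 to 763 and 1152, and AT5G35050, a hypothetical protein, was listed at 0 in both cool libraries and had 210 and 273 in the gradient. All 12 were called higher after scaling too. Each of the 12 was below 10 in both 22 °C libraries and so passed the filter through the warm columns alone. The constant added before the log therefore enters the size of these rises and their rank, and the call after scaling does not remove this.

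The 12 largest falls, chosen in the same way, included no gene of the heat shock lists. AT3G16670, annotated as a pollen Ole e 1 allergen and extensin family protein, went from 6039 and 3837 to 1 and 3, a log2 fold change of -10.73 ± 0.56 (limma adjusted p = 6.99e-06). PRB1, a basic relative of PR1, went from 209 and 138 to 0 in both gradient libraries. The first of these was nearly absent from the gradient libraries and the second listed at 0. AT3G05730, a defensin-like protein, fell from 5556 and 4151 to 222 and 205. AT3G05727, annotated in a pollen coat protein family, fell from 7831 and 6662 to 327 and 201. AT4G22505, of a lipid-transfer protein family, fell from 3208 and 1905 to 169 and 147, and its near copy AT4G22513, with which it may share reads, from 369 and 295 to 19 and 17. Neither copy was above 200 in the gradient. AT4G22475, uncharacterised, fell from 5136 and 3364 to 227 and 217. AT5G38930, a cupin family gene, fell from 193 and 131 to 9 and 9. AT4G37220, of the WCOR413 cold acclimation family, fell from 849 and 1162 to 61 and 66, so a cold acclimation family name stood among the falls. AT3G62950, of the thioredoxin superfamily, fell from 655 and 1034 to 20 and 53. The non-coding AT3G05945 went from 1301 and 1350 to 72 and 83, and NRT2.3, given above, completed the set. For all 12 both gradient libraries lay below both cool libraries, which the rule of choice required. All were called lower after scaling, as was every gene called lower as deposited.

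The shoots of the gradient and of the uniform 32 °C group had the same labelled shoot temperature and differed in the root zone. Between them 85 of 21877 genes (0.389%) were called, 27 higher in the gradient (0.123%) and 58 lower (0.265%), and 3224 genes had an unadjusted limma p under 0.05. These calls rest on few libraries. Without uniform 32 °C library 1 or 2 there were 0 higher and 2 lower, and without library 3 there were 7 and 15. With limma there were 0 calls without gradient library 1 (1913 genes at an unadjusted p under 0.05), 0 without gradient library 2 (2040) and 0 with the replicate number as a block (3694). Each call against uniform 32 °C given below for values as deposited was therefore lost without either one of the gradient libraries. This comparison shares the gradient libraries with the one against 22 °C, so the values are given side by side and not as separate support. None of the tested antenna, photosystem, phosphate, glucosinolate or dark and sugar starvation genes was called between the gradient and uniform 32 °C. The antenna share of the column total was 3.23, 3.57 and 3.39% in the uniform 32 °C shoots.

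The genes lower in the gradient than at uniform 32 °C included 10 of the 24 larger chaperones (12 after scaling). Of the 24 differences 23 were negative, with a median log2 difference of -0.62 against 0.01 for all genes. Over all 21877 tested genes 10609 differences were negative. Such a count was not particular to chaperones, since 24 of 25 glucosinolate genes and 16 of 17 cell cycle genes also had negative differences, without a call. ROF2 had 5886 and 5240 in the gradient and 11583, 12017 and 8815 at uniform 32 °C, a log2 difference of -0.95 ± 0.13 (limma adjusted p = 0.0441). HSP90.1 had 4643 and 4433 against 11008, 10484 and 9019 (limma adjusted p = 0.0294). HSP101 had 481 and 488 against 1012, 982 and 825 (limma adjusted p = 0.0404). HSP70 had 2978 and 3498 against 10721, 10354 and 7489, a log2 difference of -1.54 ± 0.25 that was not called (limma adjusted p = 0.0585). For these 4 genes every gradient library was below every uniform 32 °C library and above every 22 °C library. After scaling all 4 were called lower, HSP70 with a limma adjusted p of 0.0439. Small heat shock proteins showed a called difference in 1 of 14 members, AT5G51440, with 627 and 815 against 2001, 1884 and 1709. ATHSP22.0 had 3416 and 2852 against 3173, 3138 and 2708, ranges that overlap. After scaling 1 member was called lower and 1 higher than at uniform 32 °C. The latter was HSP18.2 (limma adjusted p = 0.0442), with 3183 and 3351 against 2153, 2428 and 2113.

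Sulfur deficiency genes gave 6 of 15 called lower than at uniform 32 °C, and 6 after scaling. GGCT2;1, a glutathione-degrading enzyme, had 64 and 94 in the gradient and 261, 313 and 284 at uniform 32 °C (log2 difference -1.86 ± 0.20, limma adjusted p = 0.0293). BGLU28 had 246 and 281 against 890, 766 and 1018. APR1 had 1746 and 2319 against 3731, 4089 and 4246. For BGLU28 and APR1 the gradient libraries lay between the cool and the uniform 32 °C values.

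Of the 20 flavonoid and anthocyanin genes 1 was called lower than at uniform 32 °C and none higher, and these counts were the same after scaling. The one called was LDOX, anthocyanidin synthase, which had 5 and 7 at 22 °C, 21 and 70 in the gradient and 268, 406 and 457 at uniform 32 °C (log2 difference to the last -3.22 ± 0.48, limma adjusted p = 0.0476). AT5MAT, which adds malonate to anthocyanins and is not in that list, had 6 and 17 against 83, 94 and 118, and UF3GT 1 and 10 against 112, 123 and 187, the latter not called (limma adjusted p = 0.0540). TT4, the entry enzyme, stood closer, at 7666 and 8056 against 10808, 9091 and 12803, and was not called.

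The largest differences downward were those of AT3G54530, uncharacterised, with 3 and 2 against 88, 70 and 57, and of NUDT24, a nudix hydrolase. NUDT24 had 3 and 1 at 22 °C, 162 and 124 in the gradient and 1576, 2187 and 1699 at uniform 32 °C, a log2 difference to the last of -3.66 ± 0.30 (limma adjusted p = 0.0140). AT5G54560, a hypothetical protein, had 10 and 7 against 58, 55 and 73. Of the 58 genes lower than at uniform 32 °C, 51 had a gradient mean between those of 22 °C and uniform 32 °C. These genes were chosen for lying below uniform 32 °C, and 14993 of the 21877 tested genes were called between uniform 32 °C and 22 °C. The choice thus enters this count, and the share over all tested genes was not taken, so the count describes only this set.

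Genes higher in the gradient than at uniform 32 °C were fewer. ASN1 had 70701 and 92329 at 22 °C, 15999 and 23707 in the gradient and 6644, 8678 and 6156 at uniform 32 °C (log2 difference to the last 1.46 ± 0.21, limma adjusted p = 0.0441), with the gradient between the other groups. PRR5, a clock repressor, had 1391 and 1930 at 22 °C, 708 and 583 in the gradient and 252, 276 and 309 at uniform 32 °C. RbcX1, a Rubisco assembly chaperone, had 350 and 387 against 129, 136 and 149, with 651 and 692 at 22 °C. In all 3 the gradient libraries lay below 22 °C and above uniform 32 °C. DOT3, of the phototropic NPH3 family, was highest in the gradient, with 43 and 33 at 22 °C, 175 and 217 in the gradient and 68, 73 and 71 at uniform 32 °C. The other members of the set of 6 were AT1G06830, a glutaredoxin family gene (95 and 121 against 22, 19 and 29), and AT3G46370, a leucine-rich repeat kinase family gene (138 and 223 against 41, 32 and 59). Among auxin genes 3 of 20 were called higher than at uniform 32 °C, SAUR20, IAA14 and IAA29. After scaling 2 were called, and IAA14 was not (limma adjusted p = 0.0673). Of the 20 differences 18 were positive as deposited, with a median of 0.61. Over all 21877 tested genes 11266 were positive, and all 19 photosystem genes had positive differences without a call. SAUR20 had 1238 and 1297 against 745, 692 and 817 (limma adjusted p = 0.0391) and IAA14 1870 and 1693 against 1074, 1061 and 1232 (limma adjusted p = 0.0478), while IAA29, an auxin-induced repressor protein, was named after its values were seen and had 2282 and 2118 against 1316, 1230 and 1150. Of the 27 genes higher than at uniform 32 °C, 10 had a gradient mean between the other 2 means, a count that likewise describes only a set chosen by its difference to uniform 32 °C.

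**Figure D5:**
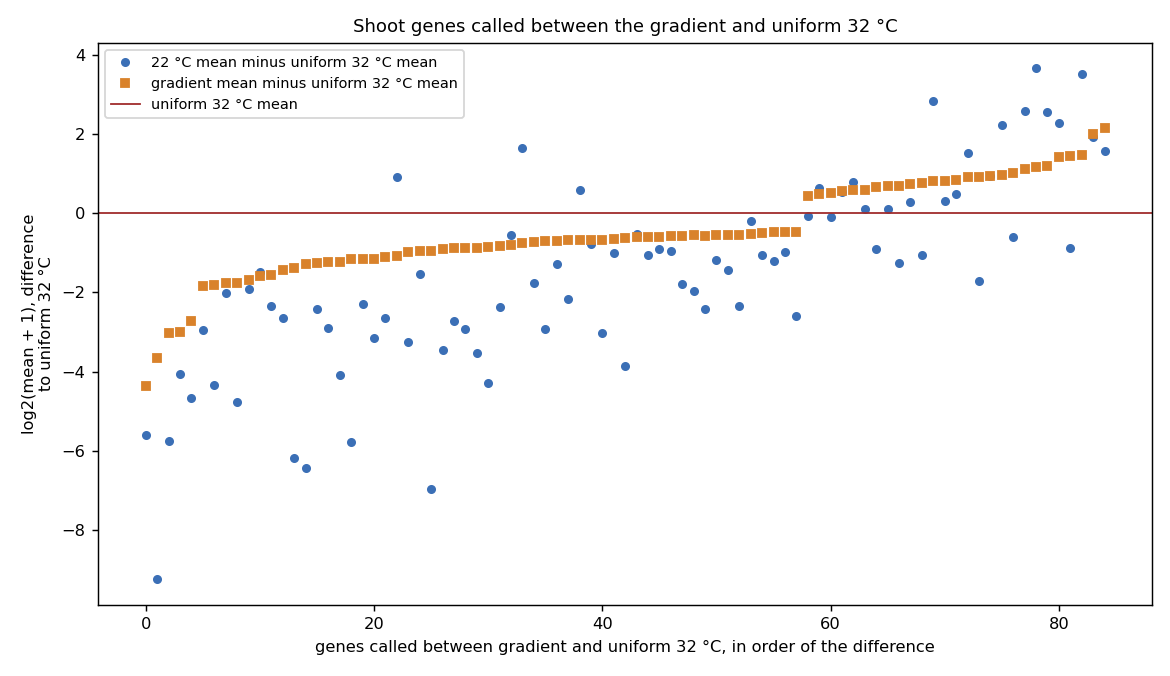
Log2(mean + 1) of the gradient (squares) and of 22 °C (circles) minus that of uniform 32 °C (red line at 0) for the 85 shoot genes called between the gradient and uniform 32 °C, ordered along the x axis by that difference. Most of the 58 genes at the left have the gradient between 22 °C and uniform 32 °C (51 genes), and fewer of the 27 at the right do (10 genes). The genes were chosen by their difference to uniform 32 °C, which enters these counts. With trimmed-mean scaling the calls were 24 higher and 70 lower.

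The shoot response was last set against that of the root for 14 genes, in 1 fit over all 14 distinct libraries with the 22 °C roots represented by 1 library. The difference between organs (shoot change minus root change, gradient against 22 °C) was called for 7 of them, and for 26.2% of all 23070 genes. After scaling 4 were called, the same number as without 22 °C shoot library 2 or gradient shoot library 1. HSP21 differed most, with values from 0 to 2 in the 4 root libraries and a difference of 6.82 ± 0.62. It was listed at 0 at 22 °C in both organs, so the added 1 enters the size of this difference and its rank. TT4 rose more in shoots than in roots, where its values were 149 at 22 °C and 291, 652 and 714 in the gradient, a difference of 3.49 ± 0.59 (limma adjusted p = 0.00151). ROF2 rose in both organs and more in shoots, by 1.89 ± 0.25 (limma adjusted p = 3.69e-04), with 168 at 22 °C and 3131, 2512 and 3118 in the gradient in roots. HSP70 showed no called difference, 0.25 ± 0.38 (limma adjusted p = 0.667), and neither did HSP101, HSFA2, LHCB1.1, RBCS1A, COR15A or PR1.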

How the data were processed

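Per the labels' protocols, polyA RNA of shoots and roots was fragmented, copied to cDNA and sequenced on an Illumina instrument. STAR 2.5.3a, DESeq2 and HISAT2 are listed, without their roles, per the submitters' processing notes. Build, annotation, strandedness and read counting were not stated in the sources at hand. The authors deposited 1 table of whole-number values described as normalised counts, treated here as a score and not as raw reads, so library depth is unknown and no count model, interval or detection floor was used. Loci were named from RefSeq TAIR10.1 (32548 of 32833 matched, 285 not).

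Genes reaching 10 in 2 or more shoot columns were tested with limma 3.58.1 (R 4.3.3) on log2(value + 1), with an intensity trend, 1 mean per regime over 7 distinct shoot libraries (4 residual degrees of freedom, uniform 32 °C included), two-sided, with Benjamini-Hochberg adjustment over all tested genes. The organ fit used 14 libraries and 8 residual degrees of freedom. The scaling alternative trimmed 30% of log ratios and 5% of intensities at each end. The fit was tested on simulated data.

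The members, the 32 gene lists and the 6 marker lists were chosen with earlier results of these data known. Genes were named by a rule: the 12 largest rises and falls and the 6 largest differences each way to uniform 32 °C among called genes with a mean of at least 50 and no overlap, up to 6 called and 3 uncalled members per list by adjusted p, and 14 fixed genes. Exceptions are marked in the text. Alternatives were other scalings, pseudocounts (0.5 and 8) and filters, the replicate block, the identical columns kept, a minimum fold of 2, and each library left out. The other numbering of the identical columns in the block and counting them once in the filter were chosen after seeing the data.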

Additional observations from a re-analysis of the deposited data

Results flagged for a closer look

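Of the 14 genes compared between organs, 7 had a shoot response to the gradient that differed from the root response in the limma interaction test, where the 22 °C roots are a single distinct library. The difference (shoot change minus root change, log2) was 6.82 for HSP21, 3.49 for TT4, 2.87 for FT, 2.5 for PIF4, 1.92 for CCA1, 1.89 for ROF2 and 0.97 for YUC8. PIF4 fell in both organs, by 0.41 in shoots and by 2.91 in roots, where it had 110 at 22 °C and 15, 6 and 28 in the gradient. CCA1 rose by 0.53 in shoots, a call that was not stable, while its root values were 1726 at 22 °C and 731, 685 and 575 in the gradient. FT had 1 at 22 °C and 1, 3 and 1 in the gradient in roots, against 10 and 5 at 22 °C and 80 and 68 in the gradient in shoots. HSP21 had 0 at 22 °C and 2, 2 and 2 in the gradient in roots. The added 1 therefore enters the size of the FT and HSP21 differences and their rank. YUC8 stood at 265 in the 22 °C root and at 280, 287 and 280 in the gradient roots. After trimmed-mean scaling the differences of PIF4 (limma adjusted p = 0.0918), YUC8 (0.179) and FT (0.0526) were no longer called.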

How the results depend on the processing

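Against 22 °C, the counts of 11510 higher and 2446 lower became 6020 and 6392 with trimmed-mean scaling and 2489 and 227 when a change of more than 2-fold was tested. Leaving out 1 library gave 9348 to 12045 higher and 1779 to 2695 lower. Against uniform 32 °C, the counts of 27 higher and 58 lower became 3 and 9 with no filter, 475 and 707 with the identical columns kept as separate libraries, and 0 and 0 with a minimum fold of 2. The lower count was 90 with a pseudocount of 8, and leaving out 1 library gave 0 to 31 higher and 0 to 84 lower. With a minimum fold of 2, 60 of 76 list counts against 22 °C moved. Photosystem genes called lower went from 16 to 0 (1 at an unadjusted limma p under 0.05), antenna genes from 16 to 5 and starvation genes from 12 to 2. Genes called higher went from 13 to 1 for the Calvin cycle and from 8 to 0 for heat shock factors (2 at an unadjusted limma p under 0.05), while 12 of 14 small heat shock proteins and 18 of 27 phosphate genes were called higher. The 7 organ differences became 4 with scaling and 4 to 7 with 1 library left out. The cause of these changes was not tested.

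With the replicate number as a block, 12092 genes were called higher and 2721 lower against 22 °C, and 0 and 0 against uniform 32 °C. With the identical pair numbered 3 the counts were 10058 and 1780, and again 0 and 0. The deviations of same-numbered libraries of the 22 °C and gradient groups correlated at 0.152, but these are only 2 pairs, so the numbers are not taken to pair the samples.

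Trimmed-mean scaling turned 158 called genes from higher to lower. Among the named genes, the directions that reversed were of uncalled values. For PR1, leaving out 1 library gave -3.22 to 0.34 in the shoot and in the organ difference, and the block with the pair numbered 3 gave 0.43. COR15A ranged from -0.46 to 1.93 over libraries left out. ATHSP22.0 against uniform 32 °C ranged from -0.072 to 0.19 and was -0.016 under the block. The organ difference of HSP70 was -0.13 with scaling and -0.17 to 0.67 over libraries left out, and that of HSP101 was -0.19 with scaling. Over libraries left out, that of HSFA2 ranged from -0.16 to 1.42, that of LHCB1.1 from -2.25 to 0.34 and that of RBCS1A from -1.32 to 0.50, the last being 0.30 under the block. Of 2142 values of named genes against 22 °C over all alternatives, 2121 kept direction and call, against 240 of 425 for those against uniform 32 °C, where 172 lost their call. Of 1368 list counts against 22 °C 174 moved by more than 1.5 times. Depth is unknown, so low values carry an unknown counting error.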

Other observations

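Loci listed at 0 in both 22 °C shoots and at 50 or more in both gradient shoots numbered 6. Besides HSP21 and AT5G35050 they were AT1G73325, a Kunitz family protease inhibitor, AT2G07671, an ATP synthase subunit C family gene, AT2G43960, a SWAP domain gene, and DPBF2, a bZIP transcription factor, all 4 named after their values were seen. The reverse pattern was met by 1 locus. Changes of at least 8-fold were called for 679 genes that were higher in the gradient and 50 that were lower.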
